A study of Mus musculus with 24 samples.

Results

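Transforming growth factor beta (TGF-beta) signaling was described through 7 genes in MC38 cells, a mouse colorectal cancer cell line from the C57BL/6 strain. The genes were the ligands Tgfb1, Tgfb2 and Tgfb3, the receptors Tgfbr1 and Tgfbr2, the transducer Smad3 and the inhibitor Smad7. They were chosen by name, and all 7 were found among the 52636 gene identifiers of the expression table. Polyadenylated RNA of 8 MC38 lines was sequenced, with 3 samples per line and 24 samples in total. MC38-WT cells were unmodified, were harvested at passages 7, 8 and 9 and were the only line grown without puromycin. MC38-MOCK#1 cells carried an empty CRISPR/Cas9 construct and served as the reference for 3 knockout lines. These were MC38-COSMC KO, in which Cas9 targeted C1galt1c1 (Cosmc, the chaperone of the T-synthase that extends the Tn antigen), MC38-CMAS KO, in which it targeted Cmas (the enzyme that activates sialic acid), and MC38-DKO, in which it targeted both genes. MC38-MOCK#1 and the knockout lines were harvested at passages 4, 5 and 6. MC38-MOCK#2 cells carried the activator system CRISPR-dCas-VPR with no target gene and were the reference for MC38-FUT4 and MC38-FUT9, in which the fucosyltransferase genes Fut4 and Fut9 were to be overexpressed. MC38-MOCK#2 and MC38-FUT9 were harvested at passages 6, 7 and 8, whereas 2 samples labelled MC38-FUT4 were of passage 7 and 1 was of passage 8. The MC38-COSMC KO cells were sorted in bulk for high binding of a lectin that recognizes the Tn antigen and are not a clone. The 3 samples of a line are harvests of 1 culture history, so the p-values below measure the spread between harvests. The effect of a target gene and the derivation of its line cannot be told apart.

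TGF-beta ligands are secreted in a latent complex and must be released before they bind. A ligand joins the type II receptor Tgfbr2, which phosphorylates the type I receptor Tgfbr1, and the active complex phosphorylates Smad2 and Smad3. These enter the nucleus with Smad4 and regulate target genes, among them Smad7, which in turn blocks the receptors. In carcinomas the pathway is known for growth arrest early on and for mesenchymal change and immune suppression later.

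The deposited values are normalized counts, i.e. read counts multiplied by 1 factor per library and rounded to whole numbers. Their totals lay between 10911849 and 12263307 per sample, and the estimated depth lay between 6759409 and 16230967 reads. Of the targeted genes, Cmas was at 93 to 142 in MC38-CMAS KO and MC38-DKO and at 272 or above in every other line. C1galt1c1 was at 124 to 163 in MC38-COSMC KO and at 220 to 251 in MC38-MOCK#1, but its range in MC38-DKO, 166 to 206, lay within that of MC38-CMAS KO, 152 to 215. Fut9 was at 641 to 955 in MC38-FUT9 and at 171 to 209 in the line labelled MC38-FUT4, where Fut4 was at 0 or 1. That line is therefore called the line labelled MC38-FUT4 throughout, since its RNA goes against its label, and its differences cannot be read as those of a line with raised Fut4 RNA. The 7 epithelial markers summed to 0 to 11 and the 5 intestinal epithelial markers to 0 to 12 per sample, with none above 10, whereas the 8 mesenchymal or fibroblast markers summed to 21719 to 36772. Vim made up most of that sum (19787 to 33315), Col3a1 lay between 24 and 13474, Dcn between 0 and 417, and Thy1 was at 0 in every sample. The defining markers of a colorectal epithelium were thus at or near 0 in these cells. The 7 leukocyte markers summed to 3 to 22 and the 3 endothelial markers to 0 to 19.

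Tgfb1 was the most highly expressed of the 7 genes and Tgfb2 the lowest. Per kilobase of annotated exon, the mean level over 24 samples was 146.8 normalized counts for Tgfb1, 87.0 for Tgfb3 and 8.93 for Tgfb2. The receptors were at 63.6 (Tgfbr1) and 60.2 (Tgfbr2) normalized counts per kilobase, Smad3 was at 66.7 and Smad7 at 80.1. Thus the level of RNA for the inhibitor was on the order of that for the receptors and the transducer. All 7 genes are protein coding in GRCm38. Tgfb1 (ENSMUSG00000002603) lies at chr7:25687002-25705077 on the plus strand, Tgfb2 (ENSMUSG00000039239) at chr1:186622792-186705989 on the minus strand and Tgfb3 (ENSMUSG00000021253) at chr12:86056745-86079041 on the minus strand. Tgfbr1 (ENSMUSG00000007613) lies at chr4:47353222-47414931 on the plus strand, and Tgfbr2 (ENSMUSG00000032440) at chr9:116084293-116175360 on the minus strand. Smad3 (ENSMUSG00000032402) lies at chr9:63646767-63757994 on the minus strand and the identifier of Smad7 is ENSMUSG00000025880. Tgfb3 shares 420 exon bases (12.4%) and Tgfb2 124 (2.1%) with genes of the opposite strand. The strand setting of the counting is not given in the sources used here, and reads overlapping several genes were left out by the authors, so reads in those stretches may be missing from the counts.

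The 250 bases before the start of 4 of the genes are shown, because Tgfb1, Tgfbr1 and Smad3 were the genes that rose in MC38-FUT9 and Tgfb2 was the gene that fell in the line labelled MC38-FUT4. They are RefSeq sequences of GRCm38.p6, on the strand of the gene. A RefSeq promoter was matched for 5 of the 7 genes, none was matched for Tgfb3, and that of Smad7 is not reported here. Capitals mark 3 motifs searched on both strands, namely the Smad box CAGAC, the GC box GGGCGG and the TATA box TATAAA. In the order shown, the windows are chr7:25686752-25687001, chr4:47352972-47353221, chr9:63757995-63758244 and chr1:186705990-186706239.
Tgfb1: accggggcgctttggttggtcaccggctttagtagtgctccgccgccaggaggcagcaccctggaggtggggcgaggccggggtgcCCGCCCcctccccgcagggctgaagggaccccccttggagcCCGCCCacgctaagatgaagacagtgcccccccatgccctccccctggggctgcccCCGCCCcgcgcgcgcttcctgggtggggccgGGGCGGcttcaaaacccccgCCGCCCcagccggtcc
Tgfbr1: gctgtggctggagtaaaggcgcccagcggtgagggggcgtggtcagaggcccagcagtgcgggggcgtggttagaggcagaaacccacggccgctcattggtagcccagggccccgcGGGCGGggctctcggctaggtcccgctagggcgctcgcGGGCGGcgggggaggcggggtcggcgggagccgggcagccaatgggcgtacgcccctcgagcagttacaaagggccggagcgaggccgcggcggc
Smad3: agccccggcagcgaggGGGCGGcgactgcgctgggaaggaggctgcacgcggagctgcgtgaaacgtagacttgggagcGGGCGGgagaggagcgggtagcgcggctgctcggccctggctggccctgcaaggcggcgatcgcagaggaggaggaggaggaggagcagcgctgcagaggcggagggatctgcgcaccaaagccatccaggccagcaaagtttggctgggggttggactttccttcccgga
Tgfb2: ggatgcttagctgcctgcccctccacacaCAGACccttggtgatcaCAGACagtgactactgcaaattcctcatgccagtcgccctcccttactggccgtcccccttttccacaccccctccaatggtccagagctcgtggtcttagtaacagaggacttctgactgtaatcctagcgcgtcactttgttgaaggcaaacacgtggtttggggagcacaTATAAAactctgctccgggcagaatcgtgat
Tgfb1 held the GC box 5 times and Tgfbr1 and Smad3 held it 2 times each, and none of these windows held the other motifs. Tgfb2 held no GC box, but held the Smad box 2 times, the first starting 221 bases before the gene, and a TATA box that started 31 bases before it. Of all 32851 RefSeq windows of this length, 32.7% held the GC box, 42.2% the Smad box and 12.4% the TATA box. The GC content was 75.2% for Tgfb1, 74.8% for Tgfbr1, 69.2% for Smad3 and 53.6% for Tgfb2. The shares over all windows are not matched for GC content. The window of Tgfbr2, a gene called in no pairwise comparison, is not shown. It held no GC box and no TATA box, 1 Smad box and a GC content of 58.4%.

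Among the ligands, Tgfb1 encodes the isoform that most cells produce. Its normalized counts were 634, 771 and 661 in MC38-WT and 727, 764 and 703 in MC38-MOCK#1. In the knockout lines they were 640, 593 and 532 (MC38-COSMC KO), 751, 659 and 639 (MC38-CMAS KO) and 657, 780 and 751 (MC38-DKO). All 3 samples of MC38-COSMC KO lay below all 3 of MC38-MOCK#1, whereas those of the other knockout lines overlapped with it. MC38-MOCK#2 gave 718, 685 and 752, the line labelled MC38-FUT4 904, 793 and 851, and MC38-FUT9 896, 868 and 1036. Every sample of the latter lines was above every other sample of the series. Tgfb1 rose in MC38-FUT9 at a log2 fold change of 0.37 ± 0.09 (SE; adjusted p = 0.0210). In MC38-COSMC KO the log2 fold change was -0.32 ± 0.08 (adjusted p = 0.0511), and in the line labelled MC38-FUT4 it was 0.24 ± 0.08 (adjusted p = 0.0767), so neither passed the threshold of 0.05. The call in MC38-FUT9 was lost when each library was scaled to the same total (adjusted p = 0.0712), without the trend of the variance with the mean (0.0773) and when MC38-MOCK#2 sample 1, MC38-MOCK#2 sample 2 or MC38-FUT9 sample 1 was left out (adjusted p 0.0670, 0.0787 and 0.0636). In MC38-COSMC KO, Tgfb1 passed the threshold under 5 alternatives, with adjusted p between 0.0265 with the same total and 0.0475 with a pseudocount of 5.

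Tgfb2, a ligand that binds Tgfbr2 poorly without the co-receptor betaglycan, was expressed at 19 to 84 normalized counts. It was at 62, 84 and 72 in MC38-WT, 53, 65 and 66 in MC38-MOCK#1, 53, 47 and 58 in MC38-COSMC KO, 55, 53 and 42 in MC38-CMAS KO and 57, 52 and 37 in MC38-DKO. MC38-MOCK#2 gave 45, 65 and 45, MC38-FUT9 49, 49 and 59, and the line labelled MC38-FUT4 29, 25 and 19. The last 3 values were the lowest of the series, and they overlapped with no other line. Tgfb2 fell in this line at a log2 fold change of -1.05 ± 0.26 (adjusted p = 0.0344), or 2.08-fold, and it was the largest difference of the 7 genes in any pairwise comparison. The call was lost when any 1 of the 6 samples was left out, with adjusted p between 0.0615 and 0.102. The lowest sample held an estimated 20.2 reads of Tgfb2, for which counting error alone gives a coefficient of variation of 22.2%. In the remaining comparisons the log2 fold change of Tgfb2 lay between -0.34 and 0.24 and did not pass the test. Tgfbr3, which encodes betaglycan, was at 26, 19 and 21 in the same line and at 171, 149 and 704 in MC38-MOCK#2. It fell at a log2 fold change of -3.53 ± 0.56 (adjusted p = 0.00724), a call that was kept in 3 of 6 fits that left out 1 library, with adjusted p up to 0.0611.

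Tgfb3 passed the threshold in none of the 7 pairwise comparisons with limma. Its normalized counts were 291, 420 and 328 in MC38-WT, 275, 300 and 310 in MC38-MOCK#1, 313, 245 and 228 in MC38-COSMC KO and 268, 244 and 253 in MC38-DKO. In MC38-CMAS KO they were 372, 318 and 351, all above MC38-MOCK#1, at a log2 fold change of 0.23 ± 0.09 (adjusted p = 0.209, unadjusted p = 0.0409). MC38-MOCK#2 gave 236, 248 and 359, the line labelled MC38-FUT4 323, 282 and 296, and MC38-FUT9 243, 236 and 323. Ordered by their means, no 2 neighboring lines were free of overlap for Tgfb3.

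**Figure D1:**
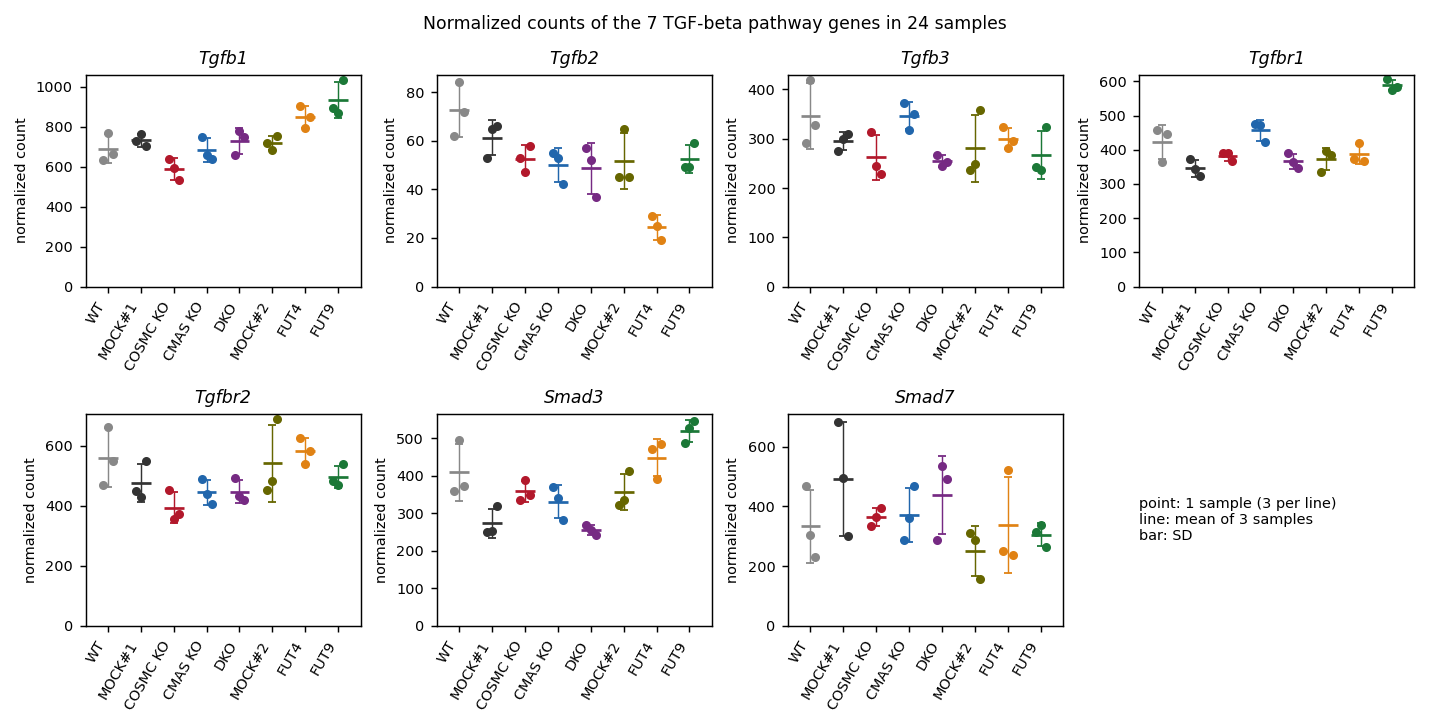
Normalized counts (vertical axes, from 0) of the 7 genes in 8 MC38 lines (horizontal axes); points are samples, horizontal lines the mean of 3 samples and bars the SD. Tgfbr1 in MC38-FUT9 (576 to 606) and Tgfb2 in the line labelled MC38-FUT4 (19 to 29) are apart from all other lines, and the 3 samples of a line are most scattered for Smad7.

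Of the receptors, the type I receptor Tgfbr1 showed the clearest difference. It was at 606, 576 and 585 in MC38-FUT9 and at 336, 396 and 385 in MC38-MOCK#2, and it rose at a log2 fold change of 0.66 ± 0.08 (adjusted p = 0.00216), or 1.58-fold. The highest sample of any other line was at 476, so MC38-FUT9 did not overlap with the rest of the series. The call was kept in all 6 fits that left out 1 library, with adjusted p between 0.00805 and 0.0213. In the line labelled MC38-FUT4 Tgfbr1 was at 373, 420 and 367, and the 95% interval of its log2 fold change, -0.18 to 0.29, lay below that of MC38-FUT9, 0.47 to 0.86. These comparisons share the MC38-MOCK#2 samples, and the difference between them was not tested. Tgfbr1 was at 476, 472 and 422 in MC38-CMAS KO and at 372, 344 and 323 in MC38-MOCK#1. It rose there at a log2 fold change of 0.40 ± 0.09 (adjusted p = 0.0496), but the call was lost when any 1 of the 6 samples was left out (adjusted p 0.0722 to 0.150), without the filter on zeros (0.0528), with the same total (0.0521) and without the trend (0.135). It was at 459, 365 and 445 in MC38-WT, 390, 390 and 366 in MC38-COSMC KO and 390, 364 and 346 in MC38-DKO, which all overlapped with MC38-MOCK#1.

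The type II receptor Tgfbr2 passed the threshold in no pairwise comparison with limma, at an unadjusted p of 0.0682 or above. It was at 469, 663 and 549 in MC38-WT, 448, 430 and 550 in MC38-MOCK#1, 452, 357 and 372 in MC38-COSMC KO, 489, 439 and 405 in MC38-CMAS KO and 492, 431 and 419 in MC38-DKO. MC38-MOCK#2 gave 453, 484 and 689, the line labelled MC38-FUT4 626, 539 and 582, and MC38-FUT9 483, 468 and 538. Each line overlapped with its neighbor in the order of the means, and in MC38-FUT9, where Tgfbr1 rose, the 95% interval for the log2 fold change of Tgfbr2 was -0.48 to 0.28.

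Smad3, the transducer that binds DNA with Smad4, varied between lines more than Tgfb1 or the receptors did, with line means from 256 ± 12.5 in MC38-DKO to 520 ± 29.6 in MC38-FUT9 (SD, n = 3). It was at 488, 527 and 546 in MC38-FUT9, 471, 392 and 484 in the line labelled MC38-FUT4 and 322, 336 and 413 in MC38-MOCK#2. The values of MC38-FUT9 were above all those of the other dCas lines. Smad3 rose in MC38-FUT9 at a log2 fold change of 0.55 ± 0.11 (adjusted p = 0.0127), or 1.46-fold. The call was lost without MC38-MOCK#2 sample 2 (adjusted p = 0.0607), MC38-FUT9 sample 2 (0.0656) or MC38-FUT9 sample 3 (0.0643). In the line labelled MC38-FUT4 the log2 fold change of 0.33 ± 0.13 did not pass (adjusted p = 0.136). Smad3 was at 359, 496 and 373 in MC38-WT, 250, 253 and 319 in MC38-MOCK#1, 337, 389 and 350 in MC38-COSMC KO, 370, 340 and 283 in MC38-CMAS KO and 268, 256 and 243 in MC38-DKO. MC38-WT, MC38-COSMC KO and MC38-MOCK#2 were each above MC38-MOCK#1 in all samples, whereas MC38-DKO overlapped with it. The log2 fold change against MC38-MOCK#1 was 0.57 ± 0.16 in MC38-WT (adjusted p = 0.0926), 0.39 ± 0.12 in MC38-COSMC KO (0.0749) and 0.38 ± 0.14 in MC38-MOCK#2 (0.140), none past the threshold. These comparisons share the MC38-MOCK#1 samples. The difference of MC38-COSMC KO passed without MC38-MOCK#1 sample 3 (log2 fold change 0.51, adjusted p = 0.0299) and when genes with a mean of at least 10 were tested alone (adjusted p = 0.0484). With all 8 lines in one fit, Smad3 passed in MC38-WT (adjusted p = 0.00489) and in MC38-MOCK#2 (0.0487).

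Smad7, the inhibitor that TGF-beta itself induces (chr18:75367529-75395935, plus strand), was the most scattered of the 7 genes within a line. Its within-line SD was 0.46 on the log2 scale, against 0.11 for Tgfbr1, and 87.2% of the genes with a mean of at least 10 had a smaller one. It was at 467, 305 and 229 in MC38-WT, 683, 494 and 301 in MC38-MOCK#1, 336, 365 and 396 in MC38-COSMC KO, 286, 361 and 468 in MC38-CMAS KO and 288, 534 and 491 in MC38-DKO. MC38-MOCK#2 gave 311, 289 and 156, the line labelled MC38-FUT4 252, 522 and 237, and MC38-FUT9 314, 338 and 265. The values went down with the passage number in MC38-WT, MC38-MOCK#1 and MC38-MOCK#2 and went up with it in MC38-COSMC KO and MC38-CMAS KO, so passage gave no common direction. No comparison passed the threshold for Smad7 with the values and fit used here. The log2 fold change farthest from 0 was -0.95 ± 0.36 between MC38-MOCK#2 and MC38-MOCK#1 (adjusted p = 0.152), with a 95% interval from -1.81 to -0.09.

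Counted by comparison, members were called most often in MC38-FUT9. There 3 of 7 rose and none fell, where 24.1% of all 21480 genes tested were called (12.1% higher and 12% lower) and 38.5% when genes with a mean of at least 10 were tested alone, a level that all 7 genes reached. In the line labelled MC38-FUT4, 1 of 7 was called and was lower (16.1% of all genes were called, 8.1% higher and 8.04% lower). In MC38-CMAS KO 1 of 7 was called and was higher (5.76% of all genes were called, 3.02% higher and 2.73% lower). In MC38-COSMC KO limma called 0 of 7, where 11.6% of all genes were called (6.17% higher and 5.39% lower), and 2 had an unadjusted p below 0.05. In MC38-WT and in MC38-MOCK#2 against MC38-MOCK#1 it called 0 of 7, with 2 each at an unadjusted p below 0.05, where 5.51% (2.7% higher and 2.81% lower) and 11.3% (5.3% higher and 6.02% lower) of all genes were called. In MC38-DKO it called 0 of 7 with 0 at an unadjusted p below 0.05, and called 0.092% of all genes (0.023% higher and 0.069% lower). The samples of a line and its reference were free of overlap for 3 of 7 members in MC38-FUT9 (36.8% of all genes tested) and for 2 in the line labelled MC38-FUT4 (32.1%). Against MC38-MOCK#1 this held for 2 in MC38-COSMC KO (28.4%), 2 in MC38-CMAS KO (24.3%), 1 in MC38-DKO (11.2%), 1 in MC38-WT (23.4%) and 1 in MC38-MOCK#2 (28.7%). The median log2 fold change of the 7 genes was 0.33 in MC38-FUT9, 0.13 in the line labelled MC38-FUT4, -0.21 in MC38-COSMC KO, -0.09 in MC38-CMAS KO and in MC38-DKO, 0.23 in MC38-WT and -0.03 in MC38-MOCK#2, where the median of all genes lay between -0.01 and 0.01. Scaling to the same total moved the split of all calls from 2596 higher and 2570 lower to 1979 and 3237 in MC38-FUT9, and from 1367 and 1196 to 1125 and 1747 in MC38-COSMC KO. The 3 members that rose in MC38-FUT9 remained higher under that scaling, of which Tgfbr1 and Smad3 passed the test.

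**Figure D2:**
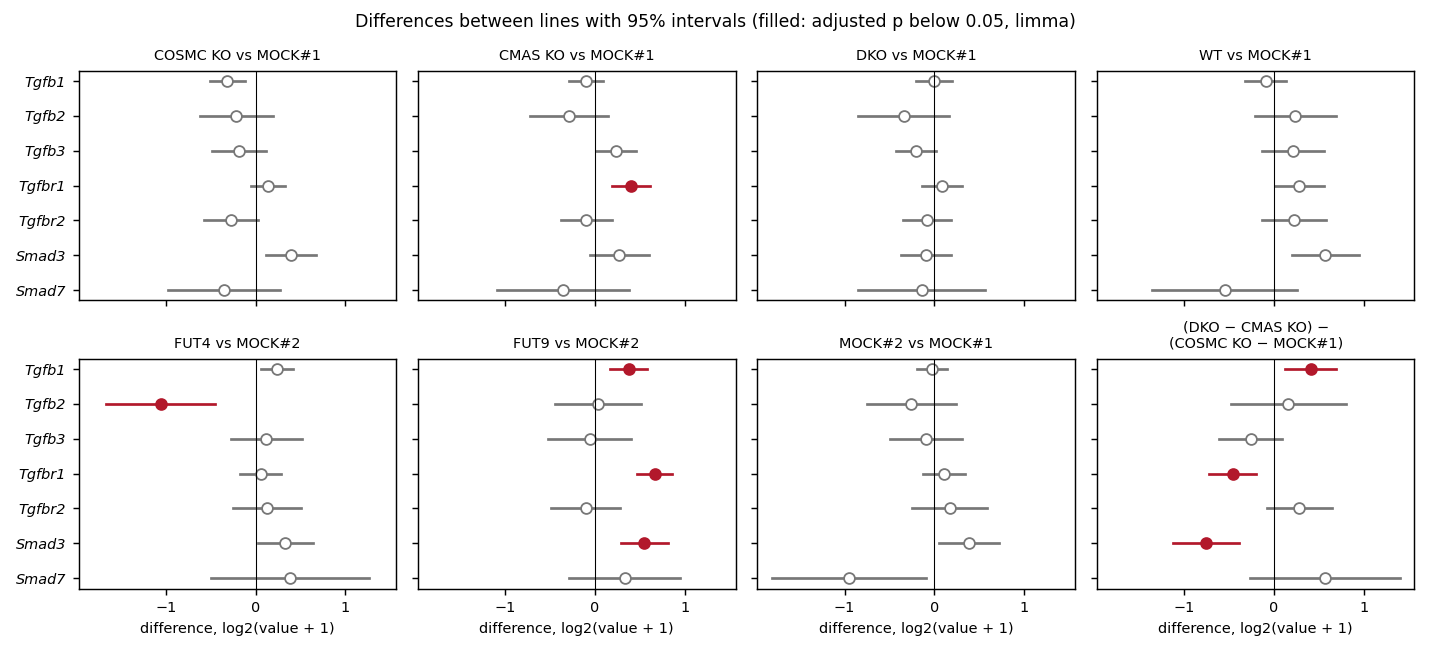
Log2 fold change (horizontal axes, log2 of normalized count plus 1) with its 95% interval for each of the 7 genes in 7 comparisons of lines and in the difference of differences of the knockout lines; filled red points have an adjusted p below 0.05. Tgfbr1, Smad3 and Tgfb1 are filled in MC38-FUT9, Tgfb2 in the line labelled MC38-FUT4 and Tgfbr1 in MC38-CMAS KO, and the intervals of Smad7 are the widest.

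Because C1galt1c1 was targeted both alone and together with Cmas, the difference that goes with its targeting could be compared in both settings. Smad3 was 0.39 higher on the log2 scale in MC38-COSMC KO than in MC38-MOCK#1, but the difference between MC38-DKO and MC38-CMAS KO was -0.36. The difference of these differences was -0.76 ± 0.17 (adjusted p = 0.00630), and it was kept in all 12 fits that left out 1 library, with adjusted p up to 0.0249. Tgfbr1 went the same way, 0.14 higher in MC38-COSMC KO and at -0.32 in MC38-DKO against MC38-CMAS KO, with a difference of -0.46 ± 0.12 (adjusted p = 0.0170), also kept in all 12 fits with adjusted p up to 0.0426. Tgfb1 went the opposite way, with -0.32 and 0.09 and a difference of 0.41 ± 0.13 (adjusted p = 0.0429). It was kept in 4 of 12 such fits, with adjusted p from 0.0754 to 0.106 without MC38-MOCK#1 samples 1 or 2, or without samples 2 or 3 of MC38-COSMC KO, MC38-CMAS KO or MC38-DKO, and was lost without the trend (adjusted p = 0.122). In this comparison 3 of 7 members were called, 1 with a positive and 2 with a negative difference, where 19% of all genes were called (9.47% and 9.52%), and 34.1% when genes with a mean of at least 10 were tested alone. Tgfb2, Tgfb3, Tgfbr2 and Smad7 did not pass (adjusted p 0.303 or above). MC38-DKO and MC38-MOCK#1 gave near values for Smad3 (243 to 268 and 250 to 319), and so did MC38-COSMC KO and MC38-CMAS KO (337 to 389 and 283 to 370). Over all genes, 0.092% were called between MC38-DKO and MC38-MOCK#1. Unmodified MC38-WT, which is not part of this contrast, was at 359 to 496 for Smad3, 365 to 459 for Tgfbr1 and 634 to 771 for Tgfb1. RNA of C1galt1c1 did not separate MC38-DKO from MC38-CMAS KO, so its targeting in MC38-DKO rests on the label.

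**Figure D3:**
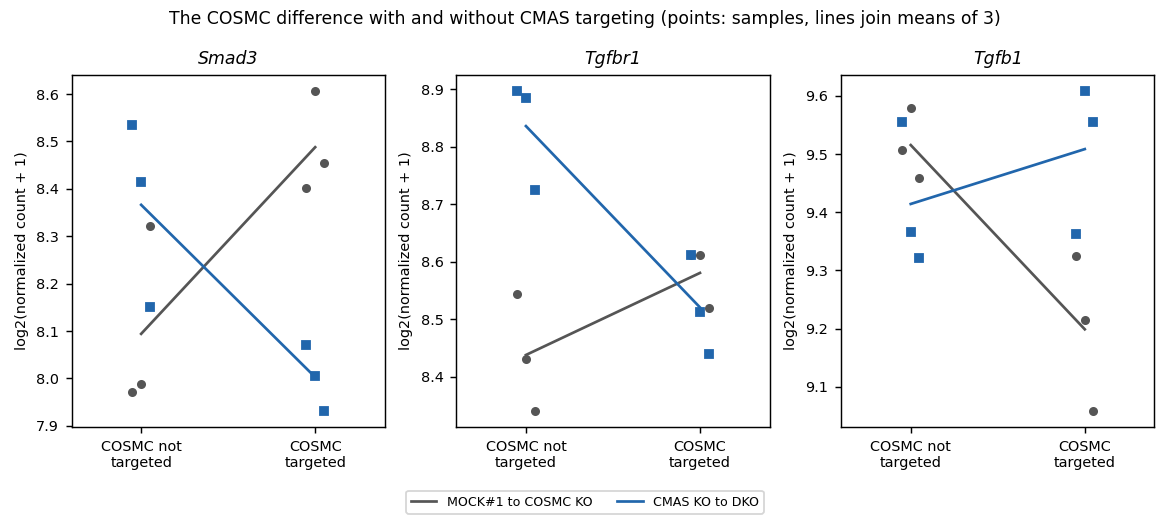
Log2 of normalized count plus 1 (vertical axes, not from 0) in lines without and with COSMC targeting (horizontal axes), for lines with CMAS not targeted (gray circles) and targeted (blue squares); points are samples and lines join the means of 3. The lines cross for Smad3, Tgfbr1 and Tgfb1, whose differences of differences are -0.76, -0.46 and 0.41.

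The samples within a line were also compared, after the mean of each line had been removed on the log2 scale. Over the 24 samples the deviations of Smad7 went against those of Tgfbr2 (Pearson r = -0.76), Smad3 (r = -0.71) and Tgfb3 (r = -0.59). For the remaining members r was nearer 0, at -0.24 for Tgfb1, -0.24 for Tgfb2 and 0.11 for Tgfbr1. Tgfb3 and Tgfbr2 deviated together (r = 0.87), and so did Smad3 and Tgfbr2 (r = 0.75). These samples share a library for both genes of a pair, and with 16 degrees of freedom left by 8 line means they are given as a description. The deviations of Smad7 and Tgfbr2 had r = 0.29 and r = -0.08 with those of the estimated depth. Among the other genes, Smad6 (an inhibitor like Smad7) and Id1, Id2 and Id3 (targets that bone morphogenetic proteins raise) deviated with Smad7, at r = 0.78, 0.74, 0.76 and 0.78, and were chosen after their values were seen. In the line labelled MC38-FUT4, sample 2 was high in Smad7 (522 against 252 and 237), Id1 (2268 against 844 and 920), Id2 (758 against 191 and 199) and Id3 (1556 against 509 and 517). It was the sample of passage 8, the others being of passage 7.

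**Figure D4:**
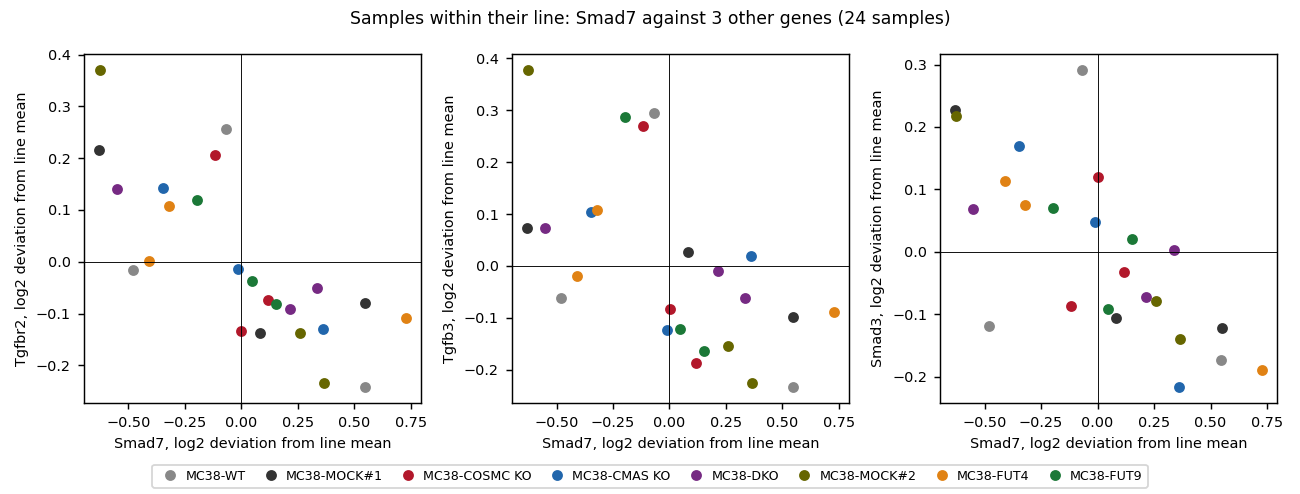
Deviation of each sample from the mean of its line on the log2 scale, for Smad7 (horizontal axes) against Tgfbr2, Tgfb3 and Smad3 (vertical axes), with 1 point per sample and 1 color per line. The points run from upper left to lower right (r = -0.76, -0.59 and -0.71).

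Over all 24 samples, the genes closest to each member among 13505 with a symbol and a mean of at least 10 were as follows. Smad3 was most like Dip2a (r = 0.95) and Dlg5 (r = 0.93), and Tgfbr1 was most like Fam8a1 (r = 0.91) and Usp1 (r = 0.90). Tgfb1 was nearest to Tspan3 and H2afj (r = 0.83 each), Tgfb2 to Gsk3b (r = 0.90) and Ntpcr (r = 0.85) and Tgfb3 to Rnf19b (r = 0.81) and Fam118a (r = 0.79). Tgfbr2 was nearest to Pdk1 (r = 0.88) and Hsd17b10 (r = 0.87), and Smad7 to Elac2 (r = 0.89) and Trmt61a (r = 0.88). None of these 14 genes is on the pathway lists.

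To place the members among the other genes of the pathway, 68 genes on 6 lists were examined, of which 62 to 64 passed the filter on zeros in each comparison. In MC38-FUT9 20 of 64 rose and 13 fell, in the line labelled MC38-FUT4 8 rose and 14 fell, in MC38-COSMC KO 11 of 63 rose and 5 fell, and in MC38-CMAS KO 12 of 63 rose and 4 fell. In MC38-WT 10 of 63 rose and 4 fell and in MC38-MOCK#2 13 of 63 rose and 4 fell, both against MC38-MOCK#1. In MC38-DKO limma called 0 of 62, where 0.092% of all genes were called, and 11 of the 62 had an unadjusted p below 0.05. The shares called were 51.6%, 34.4%, 25.4%, 25.4%, 22.2% and 27.0% in the order given. In the same fits 24.1%, 16.1%, 11.6%, 5.76%, 5.51% and 11.3% of all genes were called. When genes with a mean of at least 10 were tested alone, 38.5%, 26.4%, 22.3%, 12.1%, 10.1% and 20.3% were called. The last shares come from other fits, and the lists hold some genes below that mean, so they are not on the same basis. The comparisons of the knockout lines, of MC38-WT and of MC38-MOCK#2 share the MC38-MOCK#1 samples. Values of further lines are given below for part of the genes only.

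Among 13 genes of ligand latency and activation, Itgb8, the beta chain of an integrin that releases TGF-beta from its latent complex, was at 0, 1 and 2 in MC38-MOCK#1 and at 0, 0 and 1 in MC38-DKO. It was at 79, 50 and 38 in MC38-COSMC KO, 90, 52 and 61 in MC38-CMAS KO and 24, 79 and 55 in MC38-WT. The dCas lines were at 11 to 57 (MC38-MOCK#2), 23 to 45 (the line labelled MC38-FUT4) and 57 to 134 (MC38-FUT9). The ratio of estimated reads to MC38-MOCK#1 was 57.9 in MC38-COSMC KO (95% exact interval 19.5 to 283), 71.7 in MC38-CMAS KO (24.2 to 350) and 57.3 in MC38-WT (19.2 to 281), with counting error only. Ltbp1, which ties latent TGF-beta to the matrix, was at 1949, 1521 and 1440 in MC38-MOCK#1 and fell in MC38-COSMC KO (661, 747 and 707; log2 fold change -1.20 ± 0.12, adjusted p = 0.00163). It was at 1476, 1754 and 1783 in MC38-DKO and at 882, 1039 and 913 in MC38-WT, where its fall of 0.78 on the log2 scale was lost when any 1 sample was left out. Ltbp1 was also called lower than in MC38-MOCK#1 in MC38-CMAS KO (698 to 1046) and in MC38-MOCK#2 (680 to 781). These calls were kept in 0 and 6 of 6 fits that left out 1 library. Thbs1, encoding thrombospondin-1, a matrix protein that activates the latent ligand, was at 345, 384 and 753 in MC38-MOCK#2 and at 2, 2 and 2 in MC38-FUT9, with estimated reads 264-fold lower (95% exact interval 128 to 658). It was at 1256, 969 and 1225 in the line labelled MC38-FUT4. Furin, the protease that cuts the TGF-beta precursor, rose in MC38-FUT9 from 1488, 1387 and 1445 to 2339, 2485 and 2732 (log2 fold change 0.80 ± 0.07, adjusted p = 7.48e-04). Bmp1, a protease that cleaves latent TGF-beta binding protein, fell in MC38-FUT9 (361, 324 and 355 against 752, 662 and 789; -1.08 ± 0.09, adjusted p = 5.69e-04) and in MC38-COSMC KO (571, 580 and 573 against 900, 879 and 936; -0.65 ± 0.06, adjusted p = 0.00112). Bmp1 was also called lower than in MC38-MOCK#1 in MC38-WT (507 to 703, adjusted p = 0.0342) and in MC38-CMAS KO (562 to 667, 0.0118). These calls were kept in 1 and 2 of 6 fits that left out 1 library. MC38-DKO was at 732 to 824.

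Of 9 co-receptors and receptor modulators, none rose and 3 fell in the line labelled MC38-FUT4, namely Tgfbr3, Eng (endoglin, a co-receptor) and Acvrl1 (a type I receptor that signals through other Smads). Eng was low, at 3 to 9 there and 23 to 24 in MC38-MOCK#2. In the line labelled MC38-FUT4 16.1% of all genes were called, and 26.4% when genes with a mean of at least 10 were tested alone. Acvrl1 was at 96, 99 and 181 in MC38-MOCK#2 and at 10, 11 and 10 in that line (log2 fold change -3.42 ± 0.29, adjusted p = 7.06e-04). In MC38-MOCK#1 it was at 2, 1 and 0, so the mock lines themselves differed 126-fold in estimated reads (95% exact interval 42.7 to 614). Cd109, a co-receptor that promotes removal of TGF-beta receptors, fell in MC38-FUT9 from 783, 736 and 619 to 186, 197 and 127 (-2.08 ± 0.18, adjusted p = 6.30e-04). Zfyve9, the anchor that brings Smad2 and Smad3 to the receptor, rose in MC38-FUT9 from 600, 611 and 673 to 946, 932 and 973 (0.60 ± 0.07, adjusted p = 0.00155). Of the partners of Smad3, Smad2 was called in no pairwise comparison. Smad4 rose in MC38-FUT9 (0.34 ± 0.09, adjusted p = 0.0325), a call kept in 1 of 6 fits that left out a library, with adjusted p up to 0.118.

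In MC38-FUT9 24.1% of all genes were called, and 38.5% when genes with a mean of at least 10 were tested alone. Among 13 inhibitors and genes of Smad turnover, 6 rose and 2 fell there. The highest was Smurf1, a ubiquitin ligase that works with Smad7 against the receptors, which rose from 1299, 1372 and 1676 to 2903, 3093 and 3342 (log2 fold change 1.11 ± 0.11, adjusted p = 9.21e-04). Ski, a repressor of Smad complexes, rose from 994, 982 and 893 to 1526, 1500 and 1440 (0.64 ± 0.07, adjusted p = 0.00110). Pmepa1, which TGF-beta induces and which holds Smad2 and Smad3 back, was at 92, 99 and 77 in MC38-MOCK#2, 2, 1 and 3 in MC38-FUT9 and 6, 7 and 7 in the line labelled MC38-FUT4. Estimated reads were 59.3-fold lower in MC38-FUT9 (95% exact interval 26.9 to 163), and the log2 fold change in the line labelled MC38-FUT4 was -3.55 ± 0.22 (adjusted p = 2.75e-04). Against MC38-MOCK#1 (10, 11 and 9), Pmepa1 was higher in MC38-WT (53, 57 and 42), MC38-CMAS KO (37, 54 and 44) and MC38-COSMC KO (25, 22 and 23), with adjusted p of 0.00653, 0.00733 and 0.0296. The last was kept in 1 of 6 fits that left out a library, and the others in 4 of 6, with adjusted p up to 0.0771. Usp15, which removes ubiquitin from receptors and Smads, rose in MC38-COSMC KO from 1214, 1174 and 1110 to 1868, 1716 and 1941 (0.66 ± 0.07, adjusted p = 0.00194), where Nedd4l, a ligase for activated Smads, fell from 613, 609 and 618 to 405, 361 and 322 (-0.76 ± 0.09, adjusted p = 0.00337). Usp15 was at 1490 to 1766 in MC38-WT, 1600 to 1696 in MC38-CMAS KO and 1287 to 1322 in MC38-DKO. For Nedd4l these lines were at 371 to 447, 428 to 482 and 562 to 577. Thus MC38-WT and MC38-CMAS KO differed from MC38-MOCK#1 in the same direction, and neither difference was particular to MC38-COSMC KO.

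Of 25 commonly used target genes, 3 rose and 7 fell in the line labelled MC38-FUT4, and 5 rose and 8 fell in MC38-FUT9. In MC38-COSMC KO 5 rose and 2 fell, in MC38-CMAS KO 6 rose and 1 fell, and in MC38-WT 5 rose and none fell. Between the control lines, MC38-MOCK#2 against MC38-MOCK#1, 5 rose and 2 fell as well. The shares called were 41.7%, 54.2%, 29.2%, 29.2%, 21.7% and 29.2% in the order given. Of all genes 16.1%, 24.1%, 11.6%, 5.76%, 5.51% and 11.3% were called. Tested alone, genes with a mean of at least 10 gave 26.4%, 38.5%, 22.3%, 12.1%, 10.1% and 20.3%. In MC38-DKO 0 of 23 target genes were called, where 0.092% of all genes were called. The median log2 fold change of the target genes was -0.31 in the line labelled MC38-FUT4 and -0.37 in MC38-FUT9, or -0.22 and -0.21 with genes whose samples were all at 0 in a line set to their bound at 3 normalized counts per library. It was 0.16 in MC38-COSMC KO, 0.26 in MC38-CMAS KO, 0.41 in MC38-WT, 0.21 in MC38-MOCK#2 and -0.07 in MC38-DKO, all against MC38-MOCK#1.

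Of the target genes that encode mesenchymal transcription factors, Snai1 rose in MC38-COSMC KO from 228, 171 and 188 to 517, 545 and 591 (2.82-fold, 95% interval of the log2 fold change 1.22 to 1.78, adjusted p = 9.40e-04), and was at 438, 541 and 426 in MC38-WT. Snai1 was at 437 to 456 in MC38-CMAS KO and 607 to 800 in MC38-MOCK#2, also above MC38-MOCK#1. In MC38-COSMC KO Snai2 fell (29 to 40 against 87 to 153, log2 fold change -1.57, adjusted p = 0.0101), a call kept in 2 of 6 fits that left out a library. Snai2 fell in MC38-FUT9 from 62, 67 and 65 to 8, 13 and 10 (-2.56 ± 0.24, adjusted p = 7.68e-04), and Zeb2 rose there from 418, 453 and 697 to 1177, 1049 and 1247 (1.18 ± 0.19, adjusted p = 0.00574). Members of the same group thus went in opposite directions in MC38-FUT9 and in MC38-COSMC KO, where in both lines the gene that fell was Snai2. Zeb1, of the same group, was at 286 to 348 in MC38-COSMC KO and 109 to 143 in MC38-MOCK#1. It was at 288 to 324 in MC38-FUT9 and 206 to 235 in MC38-MOCK#2. Zeb2 was at 506 to 735 in MC38-COSMC KO and 492 to 658 in MC38-MOCK#1. Myc, which TGF-beta represses in epithelial cells, rose in MC38-FUT9 from 1310, 1349 and 1182 to 2532, 3179 and 2444 (1.08 ± 0.11, adjusted p = 0.00112). Tgfbi was at 0 or 1 in every sample and Itgb6 at 0, so these targets gave no information.

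Among 10 genes of the activin branch, which signals through Smad3 with its own receptors, 4 of 8 tested rose and none fell in MC38-FUT9. In the line labelled MC38-FUT4 3 of 8 rose and none fell. Of all genes 24.1% and 16.1% were called in these comparisons. Tested alone, genes with a mean of at least 10 gave 38.5% and 26.4%. Inhba, encoding the activin A subunit, was at 29, 17 and 27 in MC38-MOCK#2 and at 325, 318 and 754 in MC38-FUT9 (log2 fold change 4.11 ± 0.37, adjusted p = 6.99e-04). It was at 10, 6 and 9 in MC38-MOCK#1 and at 113, 89 and 134 in MC38-CMAS KO (3.60 ± 0.27, adjusted p = 0.00170), while MC38-WT was at 30, 88 and 74. Fstl3, an inhibitor of activin, rose in the line labelled MC38-FUT4 from 194, 196 and 161 to 692, 545 and 667 (1.78 ± 0.13, adjusted p = 4.41e-04). Acvr2b, an activin type II receptor, rose in MC38-FUT9 from 61, 55 and 43 to 139, 104 and 128 (1.21 ± 0.19, adjusted p = 0.00467).

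**Figure D5:**
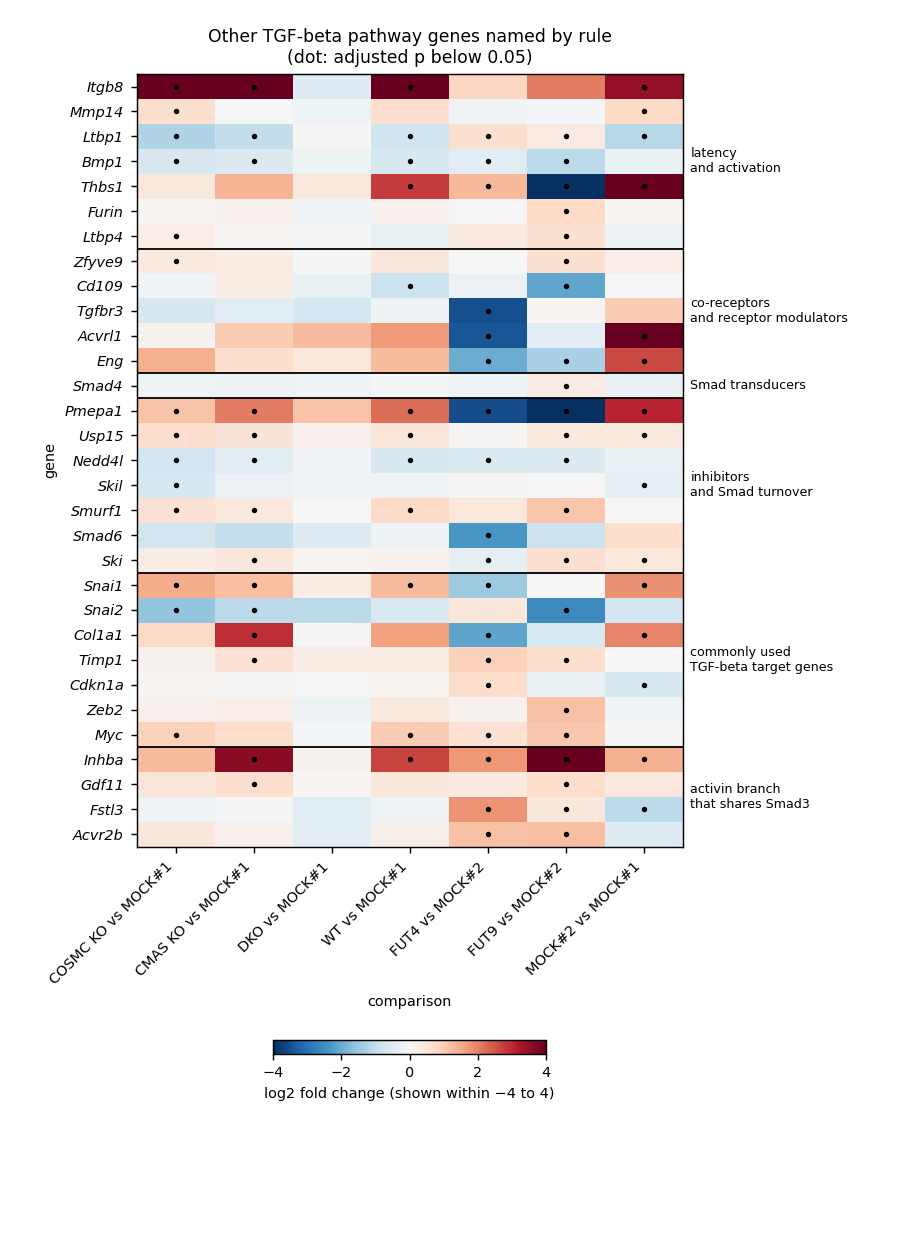
Log2 fold change (color, shown within -4 to 4) of 31 pathway genes named by rule (rows, by list) in 7 comparisons of lines (columns); a dot marks an adjusted p below 0.05. Itgb8 and Pmepa1 are red and dotted in MC38-COSMC KO, MC38-CMAS KO and MC38-WT against MC38-MOCK#1. The MC38-DKO column, a comparison in which 0.092% of all genes were called, holds no dot.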

How the data were processed

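RNA of 24 samples was sequenced as single reads of polyadenylated, strand-marked libraries. The authors trimmed reads with Sickle, aligned them to Ensembl GRCm38 release 90 with HISAT2 2.0.4 and counted them per gene with featureCounts (Subread 1.5.0-p3), leaving out reads that overlap several genes. The deposited score per gene is the read count scaled by the authors with edgeR 3.18.1 library sizes and TMM factors, and rounded. One factor acts on every gene of a library, so low genes keep their counting error. Depth per sample was estimated from the spacing of low values, and intervals cover counting error only.

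Lines were grouped by the labels. Each pair of lines was compared with limma 3.58.1 (R 4.3.3; eBayes with trend, two-sided) on log2(value + 1), after genes with more than 4 zeros in 6 samples had been left out. Fold changes are on that scale and understate those of low genes. The difference of differences used 12 samples, with at most 10 zeros. Adjusted p is Benjamini-Hochberg over all genes tested, with calls below 0.05. The script was tested on simulated data. Pathway genes were named when called, free of overlap and at a mean of at least 10, taking up to 2 per list, direction and comparison with the largest change, beside the 7 genes, the targeted genes, the markers and the 2 genes most like each member. Genes outside this rule (Smad2, Zeb1, Id1 to Id3, Tgfbi, Itgb6) were chosen after their values were seen. One gene that the rule names is counted in its list but not reported here. The members and lists were chosen with earlier results of these data known. Correlations and figures used Python 3.11.15, pandas 2.3.3, scipy 1.17.1 and matplotlib 3.10.9. Other pseudocounts, filters, scalings, fits, a replicate block and leaving out each sample were tried as alternatives. Samples were not treated as paired by replicate number.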

Additional observations from a re-analysis of the deposited data

Results flagged for a closer look

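For 3 of the 7 genes, the difference that goes with C1galt1c1 targeting was not the same with and without Cmas targeting. This was a test of the difference itself. The difference of differences on the log2 scale was -0.76 for Smad3 (adjusted p = 0.00630, limma), -0.46 for Tgfbr1 (0.0170) and 0.41 for Tgfb1 (0.0429), over 12 samples. The call of Tgfb1 was kept in 4 of 12 fits that left out 1 sample and was lost without the trend (adjusted p = 0.122). In the same comparison 19% of all genes were called, and 34.1% when genes with a mean of at least 10 were tested alone. The 4 lines were each made once, so the combination of targets and the derivation of the lines cannot be told apart. Unmodified MC38-WT, not among the 4 lines, was above MC38-MOCK#1 in all samples for Smad3 (359 to 496 against 250 to 319). Between MC38-DKO and MC38-MOCK#1, 0.092% of all genes were called.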

How the results depend on the processing

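Counts of called members moved as follows. In MC38-COSMC KO the 0 calls became 2 when genes with a mean of at least 10 were tested and 1 each with a pseudocount of 5, the same total, median-of-ratios scaling or all 8 lines in one fit. In MC38-CMAS KO the 1 call became 0 without the filter, with the same total, without the trend and with the replicate block. All 8 lines in one fit gave 2 in MC38-WT and 1 in MC38-MOCK#2 against MC38-MOCK#1. Without 1 sample, the members called ranged from 0 to 1 in MC38-COSMC KO, 0 to 0 in MC38-CMAS KO and the line labelled MC38-FUT4, 1 to 3 in MC38-FUT9 and 2 to 3 in the difference of differences.

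Samples were not treated as paired by replicate number. The rule was that all 3 correlations of same-numbered deviations exceed 0.1, which no comparison met (range over all comparisons -0.21 to 0.25). This cut cannot exclude pairing. All 3 correlations were positive in MC38-FUT9 (0.09 to 0.19) and in MC38-MOCK#2 against MC38-MOCK#1 (0.08 to 0.25). In MC38-DKO all 3 were negative, and the remaining comparisons held both signs. With the replicate block, members called were 0 in the line labelled MC38-FUT4 and 2 in MC38-MOCK#2 (Smad3, adjusted p = 0.0353, and Smad7, 0.0296), and all genes called were 4 in MC38-COSMC KO, 1 in MC38-CMAS KO, 0 in MC38-DKO, 0 in MC38-WT and 1756 in the line labelled MC38-FUT4.

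Without the trend, all genes called were 1135 (MC38-COSMC KO), 726 (MC38-CMAS KO), 40 (MC38-DKO), 717 (MC38-WT), 2270 (the line labelled MC38-FUT4), 3430 (MC38-FUT9) and 1389 (MC38-MOCK#2). All 8 lines in one fit gave 2207 (MC38-CMAS KO), 159 (MC38-DKO), 2981 (MC38-WT) and 3976 (MC38-MOCK#2). Without 1 sample they ranged from 675 to 2137, 122 to 876, 0 to 4, 31 to 693, 1621 to 3112, 3089 to 5065 and 632 to 1737 in the order MC38-COSMC KO, MC38-CMAS KO, MC38-DKO, MC38-WT, the line labelled MC38-FUT4, MC38-FUT9 and MC38-MOCK#2. The cause of these shifts was not tested.

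One uncalled log2 fold change turned its direction with the same total, that of Tgfb2 in MC38-FUT9 (-0.050). Without 1 sample, uncalled values crossed 0 for Tgfbr2 in MC38-CMAS KO (-0.17 to 0.013), in MC38-DKO for Tgfb1 (-0.057 to 0.066), Tgfbr2 (-0.15 to 0.024), Smad3 (-0.15 to 0.023) and Smad7 (-0.46 to 0.13), for Tgfbr1 in the line labelled MC38-FUT4 (-0.017 to 0.10), in MC38-FUT9 for Tgfb2 (-0.053 to 0.21), Tgfb3 (-0.20 to 0.13) and Tgfbr2 (-0.22 to 0.081), and in MC38-MOCK#2 for Tgfb1 (-0.060 to 0.0077), Tgfb3 (-0.28 to 0.018) and Tgfbr2 (-0.015 to 0.29). No called member turned its direction under any alternative run. Of 74 results of named pathway genes, 40 lost their call with the replicate block and 20 without the trend. Of the 74, 35 were called in every fit without 1 sample and 5 in none, namely Gdf11 and Ltbp1 in MC38-CMAS KO, Ltbp1 in MC38-WT and Inhba and Itgb8 in MC38-MOCK#2. Depth limited Tgfb2 most.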
